A study of Mus musculus with 18 samples.

Results

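Cytosolic ribosomal protein genes encode the proteins that, together with ribosomal RNA, make up the small and large subunits of the ribosome that translates nuclear mRNA. They were taken by name from a table of gene expression in mouse kidney, as the genes called Rps or Rpl followed by a digit, with Rpsa, Rplp0, Rplp1 and Rplp2, and without pseudogenes and the Rps6k kinases. Of 19545 entries, 81 matched, and 78 of these reached 1 FPKM in 3 or more libraries and were kept, 31 of the small and 47 of the large subunit. FPKM is the number of reads or fragments per kilobase of gene length, scaled to the reads assigned in the library. The names leave out ribosomal proteins called otherwise, among them Rps3a1, Fau and Rack1.

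The proteins are made in matched amounts, and an unassembled one is degraded. Their mRNAs are among the commonest in most cells. In mammals they begin with a C and a run of pyrimidines, the 5′ terminal oligopyrimidine or TOP motif, through which the mTORC1 kinase pathway sets how well they are translated. When ribosome assembly is disturbed, free Rpl5 and Rpl11 bind Mdm2, the ubiquitin ligase that keeps p53 low. In the kidney, growth of tubule cells under diabetes is known to go with activity of that kinase pathway.

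RNA was sequenced from kidneys of ICR mice aged 10 weeks in 6 groups of 3 libraries. A control group and a group on AOS (dose 10 mg/kg) had no STZ. The STZ group had STZ alone, and STZ+AOS had both agents, AOS again at 10 mg/kg. The groups STZ+AOS-FMT, its label also giving 10 mg/kg for AOS, and STZ+control-FMT had STZ and a transfer. STZ is the usual abbreviation of streptozotocin, which kills pancreatic beta cells and so makes rodents diabetic. FMT usually means a transplant of faecal microbiota, and the name before it is read as what the donors were given. The labels do not spell out AOS, and do not say whether the 3 libraries of a group come from separate mice, so p-values measure the spread between libraries, which may be technical.

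Libraries of a group were not alike. Kap, an abundant transcript of the proximal tubule, took 20.9% and 21.2% of all FPKM in controls 1 and 2 and 2.48% in control 3, and 19.9%, 9.61% and 2.26% in STZ 1, 2 and 3. It took 20.3% to 21.6% in AOS, 1.02% to 6.73% in STZ+AOS and 8.40% to 12.5% in the 6 transfer libraries. The summed FPKM of 10 adrenal cortex genes was 2786, 144 and 3249 in STZ+AOS and 989 in control 3, against 4.11 to 83.5 in the other 14. Markers of kidney segments (Lrp2, Slc34a1, Umod, Aqp2 and Nphs1) were present in every library. Read totals were not used here, so the depth is unknown and no counting error can be given; 11407 to 12607 genes reached 1 FPKM. In bulk tissue, fewer cells of a type and less RNA per cell cannot be told apart.

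The start of the transcript is what these genes are known to share, so windows of 60 bases around it are shown for 5 genes with a run of at least 5 pyrimidines over the start site and for 2 without such a run, Rpl12 and Rps28, that are among the largest differences further on. Each runs 5′ to 3′ on the gene's strand, from 40 bases before the start site, which is base 41. Capitals mark that run; in Rps28 it is 4 long and in Rpl12 the start site is no pyrimidine. Sequences and start sites are from RefSeq, build GRCm38.p6.
Rps6, chr4:86857348-86857407, minus strand: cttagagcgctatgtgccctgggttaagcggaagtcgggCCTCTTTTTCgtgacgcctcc
Rpl35, chr2:39005112-39005171, minus strand: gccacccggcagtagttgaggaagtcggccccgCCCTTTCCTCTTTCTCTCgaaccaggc
Rpl14, chr9:120571477-120571536, plus strand: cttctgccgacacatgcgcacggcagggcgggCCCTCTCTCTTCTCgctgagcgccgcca
Rps27, chr3:90213629-90213688, minus strand: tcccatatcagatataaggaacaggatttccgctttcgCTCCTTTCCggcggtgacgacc
Rpl38, chr11:114668540-114668599, plus strand: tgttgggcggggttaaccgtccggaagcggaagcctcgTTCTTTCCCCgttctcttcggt
Rpl12, chr2:32961672-32961731, plus strand: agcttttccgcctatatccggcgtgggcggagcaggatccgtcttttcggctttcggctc
Rps28, chr17:33824543-33824602, minus strand: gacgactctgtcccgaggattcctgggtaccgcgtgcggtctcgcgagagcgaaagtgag

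RefSeq start sites were at hand for 58 of the 78 genes. A C at the start site followed by at least 4 pyrimidines was found for 13 of the 58 (22.4%), against 2.67% of 17492 protein-coding genes and 2.91% of the 9998 tested genes with a start site. A run of at least 5 pyrimidines over the start was present in 20 of the 58 (34.5%), against 11.4% of tested genes. In the window from 250 bases before to 50 after the start, on either strand, 32 of the 58 held CCGGAA (55.2%, against 30.6% of tested genes), the core bound by ETS factors. AAGATGG, a core of the YY1 site, was in 9 (15.5%, against 8.23%), and the TATA box letters TATAAA in 6 (10.3%, against 9.14%). These are matches of letters around annotated starts, which can lie some bases from the starts used in kidney.

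The 78 genes spanned a wide range of levels but most lay close together near the top of the kidney transcriptome. Their mean FPKM over the 18 libraries had a median of 496.6 and quartiles of 343 and 673, against a median of 9.63 for the 12682 genes tested, and 69 of the 78 were among the 500 highest genes. The means of 7 genes were above 1000 FPKM and those of 7 below 100. The latter were Rpl3l (1.1), Rpl29 (2.20), Rpl34 (6.31), Rps6 (13.5), Rps15a (21.9), Rps20 (39.6) and Rpl22 (79.8).

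**Figure D1:**
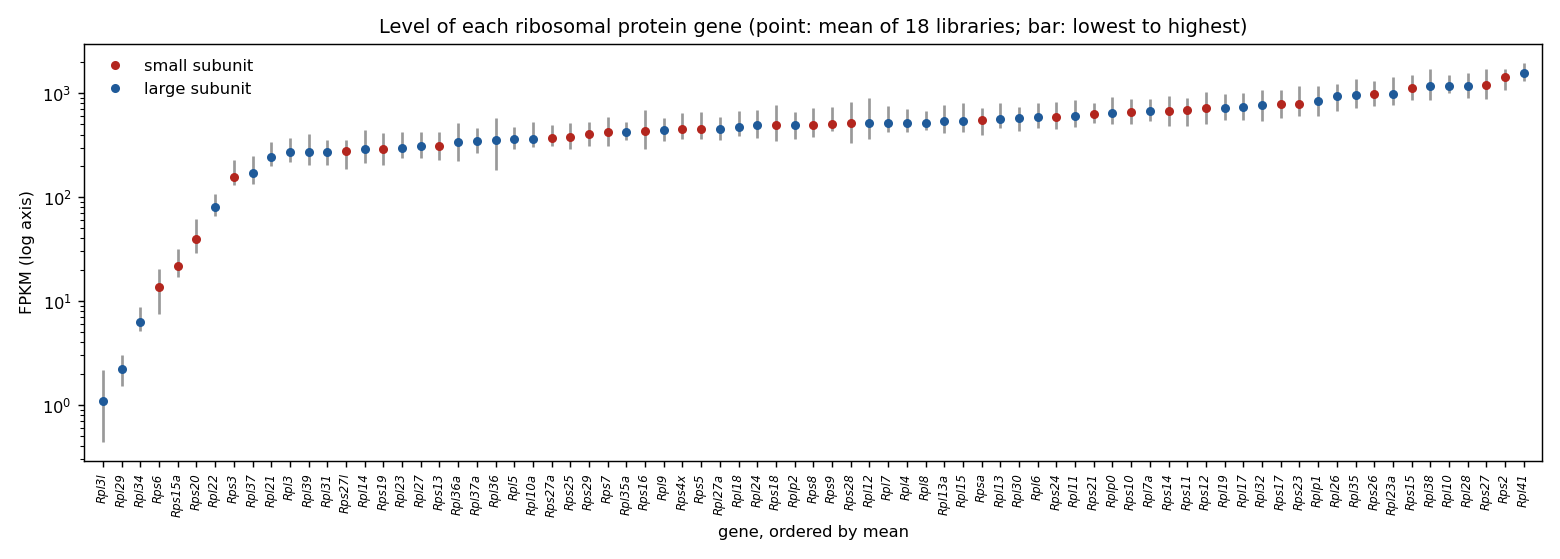
Level of 77 of the 78 ribosomal protein genes in kidney, in FPKM on a log axis, ordered by mean. Points are means of 18 libraries, bars run from the lowest to the highest library, and colours give the subunit. Most genes lie between 100 and 1000 FPKM, and Rpl3l, Rpl29, Rpl34 and Rps6 lie far below the rest.

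Among the highest, Rpl41 (chr10:128548114-128549305), which encodes the smallest protein of the ribosome, was at 1488, 1322 and 1800.2 FPKM in control, 1401, 1329 and 1369 in AOS and 1565, 1735 and 1813 in STZ, and at 1955, 1654 and 1445 in STZ+AOS, 1640.05, 1515 and 1400.5 in STZ+AOS-FMT and 1898, 1483 and 1644 in STZ+control-FMT. Control 2 was lowest and STZ+AOS 1 highest. Rps2 (chr17:24718116-24721929), whose protein lines the channel where mRNA enters the small subunit, was at 1238, 1070.2 and 1632 FPKM in control, 1136, 1139.7 and 1161 in AOS and 1207, 1447 and 1668 in STZ, and at 1714, 1692 and 1455 in STZ+AOS, 1557, 1541 and 1510.5 in STZ+AOS-FMT and 1529.7, 1464 and 1512 in STZ+control-FMT. Every library given STZ, alone or with AOS or a transfer, lay above all 3 AOS libraries, as did controls 1 and 3. Rps27, a zinc finger protein of the small subunit, was at 959.95, 903 and 1636 FPKM in control, 1122, 992 and 879 in AOS and 1149, 1217 and 1707 in STZ, and at 1477, 1288 and 1369 in STZ+AOS, 1191, 1016 and 1137 in STZ+AOS-FMT and 1064, 1281 and 1213 in STZ+control-FMT. STZ 3 and control 3 stood highest.

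Rpl28, of the large subunit, was at 965, 900.2 and 1384 FPKM in control, 1047, 1026 and 983 in AOS and 1069.6, 1074 and 1573 in STZ, and at 1409, 1325 and 1209.6 in STZ+AOS, 1303, 1158 and 1227 in STZ+AOS-FMT and 1137, 1232 and 1274 in STZ+control-FMT. Its highest value was also that of STZ 3. Rpl10, which joins the large subunit last and makes it competent to translate, was at 1015, 1023 and 1331 FPKM in control, 1104, 1105 and 1028 in AOS and 1171, 1099 and 1487 in STZ, and at 1457, 1214 and 1148 in STZ+AOS, 1145, 1149.5 and 1125 in STZ+AOS-FMT and 1109, 1177 and 1218 in STZ+control-FMT. The range was narrow, from 1015 to 1487. Rpl38, needed in mouse embryos for translation of Hox mRNAs, was at 888, 892 and 1477 FPKM in control, 872, 1009.6 and 868 in AOS and 1076, 1173 and 1676 in STZ, and at 1697, 1269 and 1254 in STZ+AOS, 1213, 1078 and 1087 in STZ+AOS-FMT and 1184, 1157 and 1119 in STZ+control-FMT. STZ+AOS 1 and STZ 3 were at nearly the same height and AOS 3 was lowest.

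At the other end, Rps6 (chr4:86854660-86857412) is the small subunit protein that the S6 kinases phosphorylate downstream of mTORC1. It was at 16.7, 9.50 and 14.6 FPKM in control, 11.6, 10.1 and 12.6 in AOS and 12.1, 14.6 and 14.5 in STZ, and at 20.3, 13.3 and 7.49 in STZ+AOS, 13.3, 8.83 and 16.6 in STZ+AOS-FMT and 11.97, 15.5 and 19.3 in STZ+control-FMT. The lowest and the highest value were both in STZ+AOS. Rpl34 (chr3:130726831-130730398) was at 6.25, 5.84 and 7.30 FPKM in control, 6.20, 6.10 and 5.14 in AOS and 6.33, 7.73 and 6.40 in STZ, and at 8.76, 5.97 and 6.55 in STZ+AOS, 5.97, 5.46 and 5.53 in STZ+AOS-FMT and 5.21, 6.21 and 6.58 in STZ+control-FMT. It kept within 5.14 to 8.76. Rpl29 (chr9:106429454-106431568) was at 1.86, 2.59 and 3.02 FPKM in control, 2.43, 2.66 and 1.70 in AOS and 2.00, 1.58 and 2.97 in STZ, and at 1.64, 2.94 and 1.81 in STZ+AOS, 2.49, 1.52 and 1.57 in STZ+AOS-FMT and 2.82, 2.06 and 1.98 in STZ+control-FMT. No group stood apart. Rpl3l (chr17:24727820-24736143), the copy of Rpl3 used in heart and skeletal muscle, was at 2.18, 1.37 and 0.82 FPKM in control, 1.81, 1.49 and 0.72 in AOS and 1.60, 0.81 and 0.97 in STZ, and at 0.86, 0.84 and 1.51 in STZ+AOS, 0.91, 0.76 and 0.44 in STZ+AOS-FMT and 0.75, 0.75 and 1.16 in STZ+control-FMT, and reached 1 FPKM in 7 libraries, the fewest among the genes kept. The 3 genes left out, Rpl10l, Rpl39l and Rpl32l, reached it in 0 libraries, with at most 0.46, 0.34 and 0.86 FPKM.

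How reads shared with other genes were counted is not given in the sources used here. In GENCODE M21 transcripts, a median of 37.1% of a member's stretches of 50 bases occur in transcripts of other genes, on either strand. The share runs from 0 to 95.1% (Rpl35), and for most members the other genes are mainly pseudogenes. For Rps6 it is 84.6% (701 of 829 stretches), shared with 14 other genes. For Rps15a it is 5.43% (327 of 6023, 64 other genes, 9 of them pseudogenes). For Rps20 it is 7.57% (277 of 3657, 50 other genes, 4 of them pseudogenes). For Rpl34 it is 11% (218 of 1987, 9 other genes) and for Rpl29 35.5% (457 of 1289, 84 other genes). The percentages are over the stretches of all protein-coding transcripts of a gene, so a large total lowers them. Whether sharing bears on the low levels was not tested. For Rps2 56.4% is shared, with 71 other genes. Levels of single members are therefore uncertain, and differences between genes more so than differences of a gene between libraries.

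Across libraries the family moved as a block. The 78 genes together took from 4.72% of all FPKM (control 2) to 9.39% (STZ+AOS 1). By replicate, they took 4.89%, 4.72% and 8.23% in the controls, 5.03%, 4.98% and 4.74% in AOS and 5.23%, 6.37% and 8.14% in STZ. In STZ+AOS they took 9.39%, 7.17% and 7.11%, in STZ+AOS-FMT 6.55%, 5.89% and 6.26%, and in STZ+control-FMT 6.38%, 6.01% and 6.28%. Control 3 thus lay with the higher libraries and STZ 1 with the lower, while AOS and both transfer groups were tight. With Kap left out of the sum, the share still ran from 5.96% to 9.49%.

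**Figure D2:**
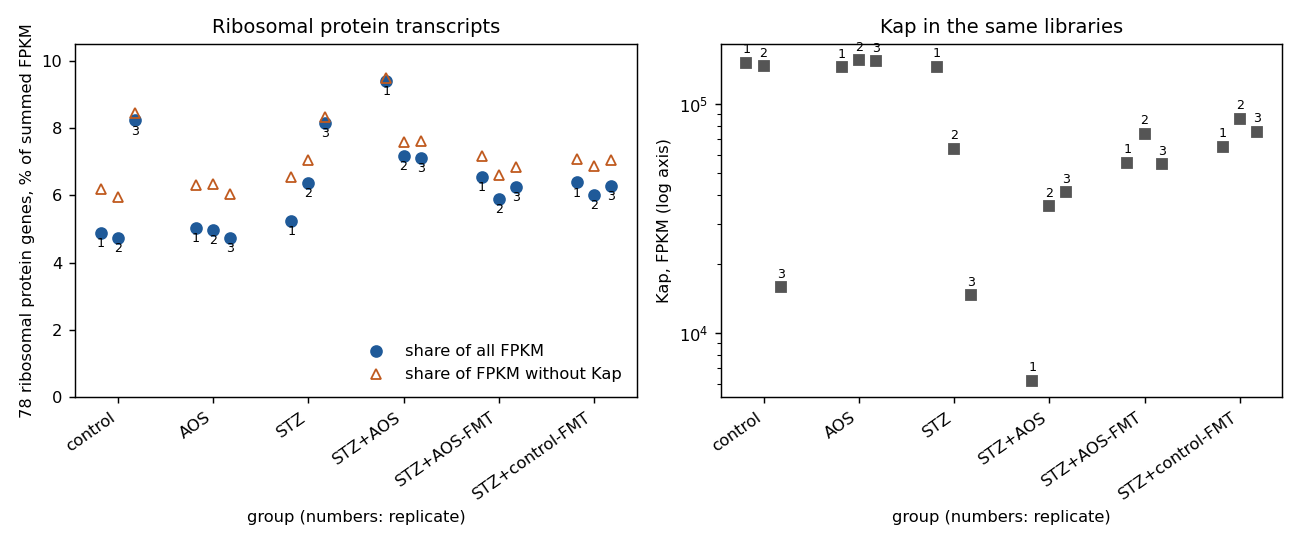
Left, share of the summed FPKM taken by the 78 ribosomal protein genes in each library, with Kap in the sum (circles) and without it (triangles). Right, Kap in the same libraries, in FPKM on a log axis. Control 3, STZ 3 and the STZ+AOS libraries had more ribosomal protein transcripts and less Kap than controls 1 and 2 and the AOS libraries.

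The median FPKM of the 78 genes was 462 ± 129 in the controls (SD, n = 3), 415 ± 7.89 in AOS, 516 ± 90.2 in STZ, 595 ± 90.9 in STZ+AOS, 473 ± 25.5 in STZ+AOS-FMT and 495 ± 17.1 in STZ+control-FMT. The highest value of a gene was in STZ+AOS 1 for 58 of the 78, in STZ 3 for 12, in control 3 for 7 and in control 1 for 1. The lowest was in control 2 for 35, AOS 3 for 21 and control 1 for 14. The same counts over all genes were not made. A scaling factor, the median of ratios over genes detected in every library, was also highest in STZ+AOS 1 (1.24). It was 1.15 in STZ+AOS 2, 1.14 in control 3 and 1.08 in STZ 3. In controls 1 and 2 it was 0.91 and 0.92, in AOS 0.89 to 0.92, and lowest in STZ 1 (0.87). The order of the libraries is thus partly shared by genes in general.

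**Figure D3:**
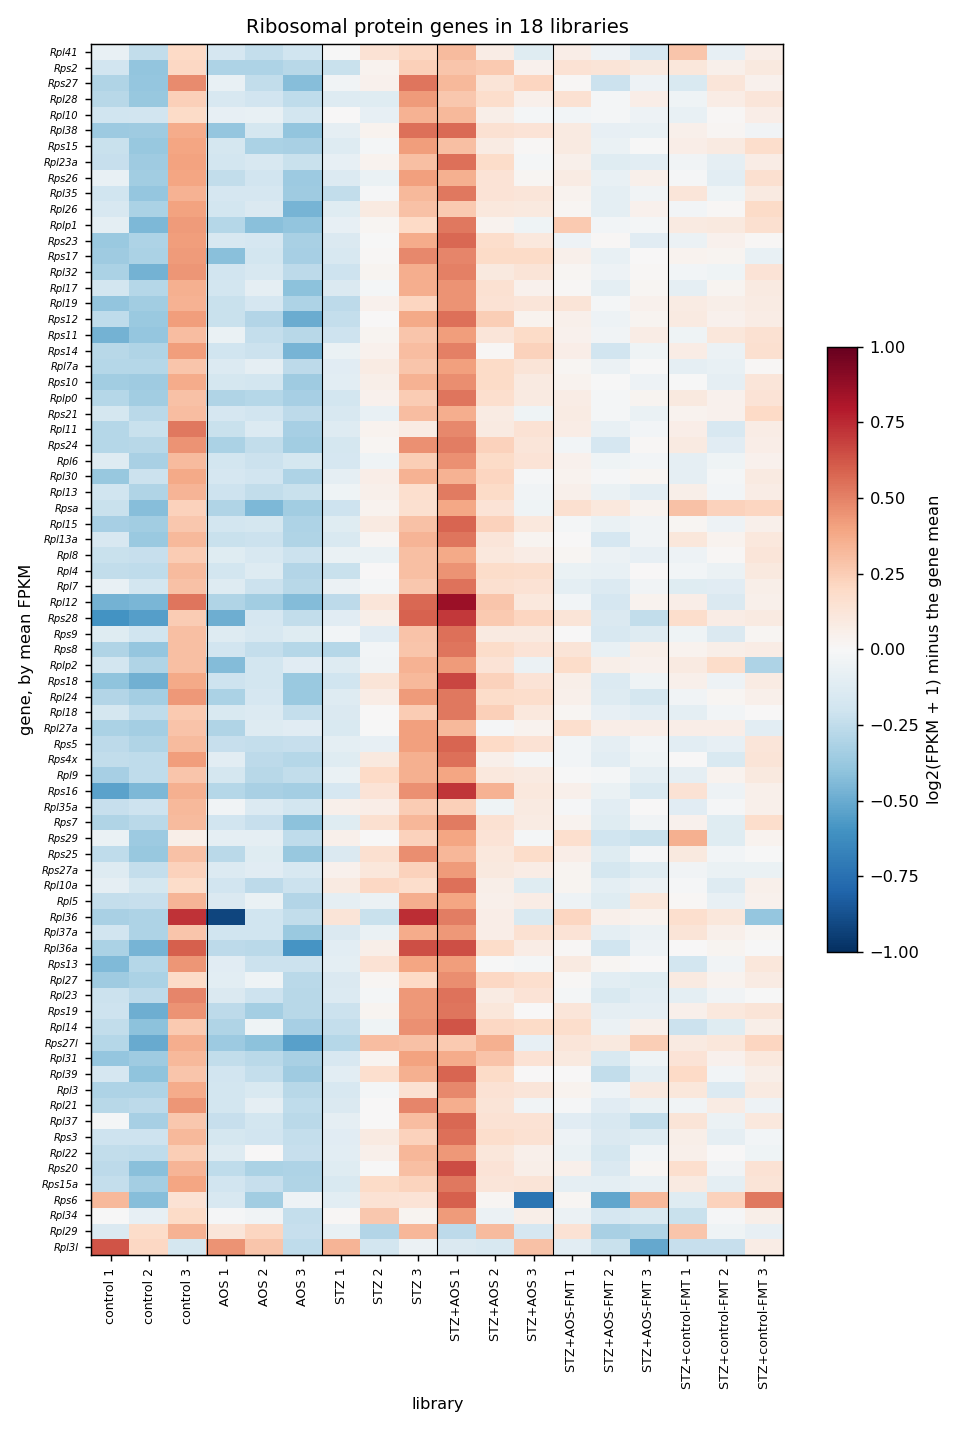
Each of 77 of the 78 genes in each library, as log2(FPKM + 1) minus the gene's mean over 18 libraries, ordered by mean FPKM. Whole columns change colour together, with control 3, STZ 3 and STZ+AOS 1 high in nearly all rows, and only a few rows, among them Rps6, Rpl36 and Rpl3l, depart from their column.

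Differences between groups were tested on log2(FPKM + 1) with limma over all 12682 genes and adjusted by Benjamini-Hochberg, and a gene is called past an adjusted p of 0.05. Values after ± on the log2 scale are standard errors. In STZ+AOS against AOS, 53 of the 78 genes (67.9%) rose and 0 fell, against 39.3% of all genes called higher and 7.18% called lower in this comparison. Both subunits took part, with 23 of 31 small and 30 of 47 large subunit genes. The median difference was 0.47, and 0.29 over all genes tested. Groups did not overlap for 73 of the 78, all higher in STZ+AOS, where 49.7% of all genes were higher and 9.75% lower without overlap.

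The 5 called genes with the largest differences came from both subunits. Rpl12 (chr2:32961559-32965345), at the base of the stalk that recruits translation factors, was at 359, 363 and 724 FPKM in control, 404, 391 and 368 in AOS and 415, 541 and 742 in STZ, and at 901, 606 and 536 in STZ+AOS, 490.03, 443 and 509.7 in STZ+AOS-FMT and 522, 451 and 517 in STZ+control-FMT. Its level was higher in each STZ+AOS library than in any AOS library, by 0.78 ± 0.26 (adjusted p = 0.0254), and STZ+AOS 1 was the highest of all 18. Rps16 (chr7:28350652-28353155), whose tail reaches the tRNA in the P site, was at 289.8, 307 and 539.7 FPKM in control, 344, 337 and 332 in AOS and 375, 464 and 579 in STZ, and at 693, 535 and 453 in STZ+AOS, 436, 402 and 379 in STZ+AOS-FMT and 466, 407 and 437 in STZ+control-FMT. The difference was 0.71 ± 0.21 (adjusted p = 0.0169), without overlap.

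Rps28 (chr17:33819027-33824562), near the path by which mRNA leaves the small subunit, was at 329, 340.1 and 596 FPKM in control, 354, 443 and 420.2 in AOS and 460.2, 519.7 and 752 in STZ, and at 816, 598 and 579 in STZ+AOS, 547, 452 and 419 in STZ+AOS-FMT and 564, 525 and 529.8 in STZ+control-FMT. It rose by 0.70 ± 0.22 (adjusted p = 0.0218), while controls 1 and 2 were the lowest libraries. Rpl36a (chrX:134585654-134588062), near the E site of the large subunit, was at 267, 240.1 and 504 FPKM in control, 277, 276 and 221 in AOS and 309, 347 and 521 in STZ, and at 520.1, 377 and 350.3 in STZ+AOS, 334, 289 and 321 in STZ+AOS-FMT and 333, 339 and 331 in STZ+control-FMT. STZ 3 and STZ+AOS 1 were alike at the top, and STZ+AOS exceeded AOS by 0.67 ± 0.24 (adjusted p = 0.0366). Rps27l (chr9:66946086-66949516), a copy of Rps27 that p53 induces, was at 224, 193 and 354 FPKM in control, 214, 206 and 188 in AOS and 225, 340.5 and 336 in STZ, and at 329, 352 and 259 in STZ+AOS, 299, 293 and 325 in STZ+AOS-FMT and 292, 296 and 319 in STZ+control-FMT. It differed by 0.62 ± 0.20 (adjusted p = 0.0215), and control 3 was its highest library.

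**Figure D4:**
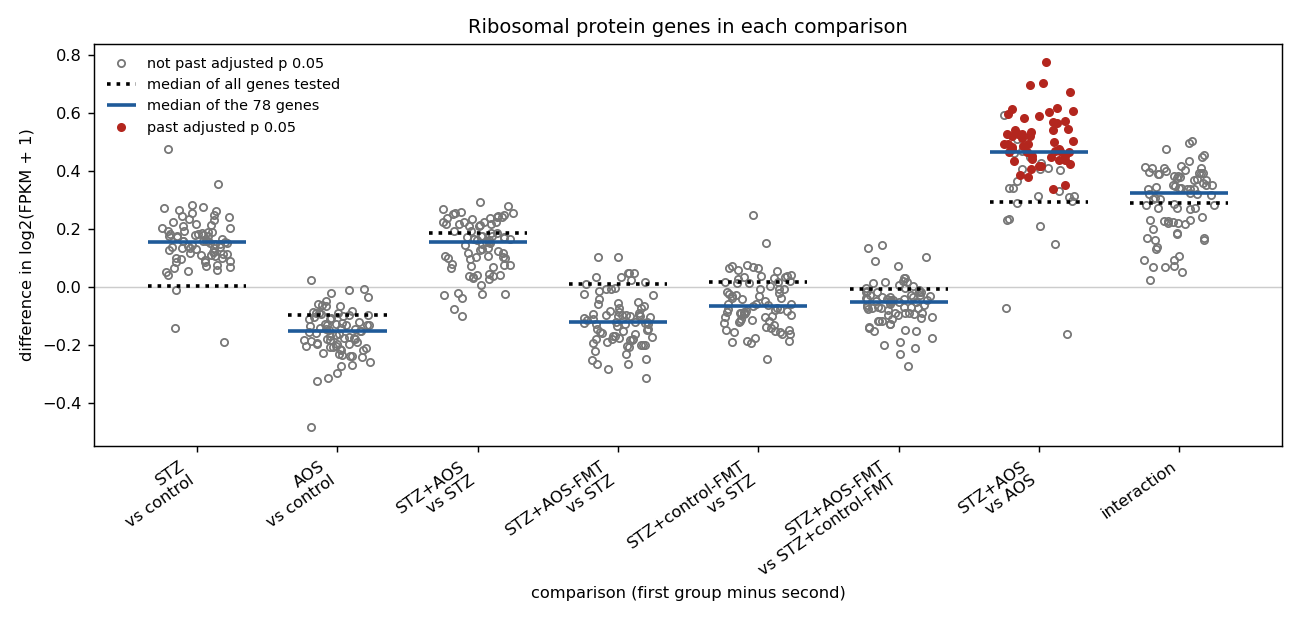
Difference of each ribosomal protein gene in each comparison, in log2(FPKM + 1), for 78 genes. Filled points passed an adjusted p of 0.05, solid lines are medians of the 78 genes and dotted lines medians of all genes tested. Filled points appear in STZ+AOS against AOS alone, where the median of 0.47 lies above that of all genes, 0.29.

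The stalk proteins, which bring elongation factors to the ribosome, were higher in STZ+AOS than in AOS. Of the 4, 3 passed (75%), beside 67.9% of the 78 genes and 39.3% of all genes called higher. Rplp0 (chr5:115559467-115563727), the stalk's anchor, was at 523, 501 and 783 FPKM in control, 518, 523 and 506 in AOS and 562, 658 and 761 in STZ, and at 922, 718 and 677 in STZ+AOS, 670.4, 628 and 649 in STZ+AOS-FMT and 683, 657 and 703 in STZ+control-FMT. The difference of 0.57 ± 0.16 passed (adjusted p = 0.0125). Rplp1 was at 769.7, 603 and 1105 FPKM in control, 677, 618 and 627 in AOS and 779, 834 and 944 in STZ, and at 1185, 846 and 799 in STZ+AOS, 986, 809.7 and 811 in STZ+AOS-FMT and 876, 879 and 920.2 in STZ+control-FMT. It differed by 0.54 ± 0.18 (adjusted p = 0.0294). Rplp2, its partner, was at 429.8, 398 and 602 FPKM in control, 362, 431 and 452 in AOS and 447, 477 and 621 in STZ, and at 656, 537 and 468 in STZ+AOS, 556, 509 and 503 in STZ+AOS-FMT and 520.3, 555 and 395 in STZ+control-FMT. Groups did not overlap, but 0.41 ± 0.18 missed the threshold (adjusted p = 0.0736).

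Of the pair that carries 5S RNA and binds Mdm2, Rpl11 passed and Rpl5 did not. Rpl11 was at 485, 506 and 852 FPKM in control, 507, 538 and 469 in AOS and 540.5, 606 and 626 in STZ, and at 826, 627 and 651 in STZ+AOS, 622, 561 and 580.1 in STZ+AOS-FMT and 619, 527 and 622 in STZ+control-FMT. It rose by 0.47 ± 0.17 (adjusted p = 0.0393), though control 3 exceeded every STZ+AOS library. Rpl5 was at 301, 304 and 451 FPKM in control, 321, 339.6 and 289.8 in AOS and 335, 341 and 459 in STZ, and at 467, 368 and 374 in STZ+AOS, 344, 327 and 386 in STZ+AOS-FMT and 359, 338 and 367 in STZ+control-FMT. Its difference was 0.34 ± 0.16 (adjusted p = 0.0859), again without overlap.

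Rps19, the gene most often mutated in Diamond-Blackfan anaemia, was at 246, 203 and 391 FPKM in control, 238, 225 and 235 in AOS and 246, 291 and 385 in STZ, and at 414, 308 and 287 in STZ+AOS, 310.03, 268 and 268 in STZ+AOS-FMT and 296, 306 and 312 in STZ+control-FMT. It just missed, with 0.51 ± 0.21 (adjusted p = 0.0537). Of the 9 genes listed for that anaemia, 6 passed (66.7%), and of the 7 at the exit of the peptide tunnel, 5 (71.4%). These shares are near the 67.9% of the whole family, where 39.3% of all genes were called higher. Rpsa (chr9:120127689-120132369), also known as the laminin receptor precursor, was at 468, 407 and 639.8 FPKM in control, 444, 399 and 429 in AOS and 473, 561 and 609.7 in STZ, and at 716, 601 and 531 in STZ+AOS, 609.9, 586 and 560.3 in STZ+AOS-FMT and 669, 641 and 633 in STZ+control-FMT. Its difference was 0.53 ± 0.15 (adjusted p = 0.0132). Rps27a, made as a fusion with ubiquitin, was at 336, 312 and 433 FPKM in control, 335, 340.1 and 329 in AOS and 380.2, 398 and 433 in STZ, and at 496, 395 and 388 in STZ+AOS, 376, 327 and 338 in STZ+AOS-FMT and 359.8, 352 and 351 in STZ+control-FMT. This gave one of the smaller called differences, 0.34 ± 0.12 (adjusted p = 0.0318).

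Among the highest genes, Rps2 differed by 0.50 ± 0.14 (adjusted p = 0.0130) and Rpl38 by 0.61 ± 0.19 (adjusted p = 0.0223). Rps27, Rpl28, Rpl41 and Rpl10 gave 0.47, 0.36, 0.29 and 0.23 and did not pass. The genes at the bottom of the range did not pass either, with 0.24 ± 0.13 for Rpl34, 0.15 ± 0.29 for Rps6, -0.07 ± 0.21 for Rpl29 and -0.16 ± 0.23 for Rpl3l. The median difference was 0.47 both for the 26 genes with over 50% of shared stretches, of which 19 passed, and for the other 52, of which 34 passed. The 13 genes with a C and 4 pyrimidines at the start had a median of 0.48, with 7 passed, and the other 45 with a start site 0.47, with 33 passed. Over the family 53 of 78 (67.9%) passed, and of all genes 39.3% were called higher.

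Other genes of ribosome production were read beside the family in STZ+AOS against AOS, where 39.3% of all genes were called higher. Of 35 ribosome assembly factors, 20 (57.1%) rose and 0 fell (median 0.43), among them Ncl and Npm1, nucleolar proteins, by 0.63 ± 0.13 (adjusted p = 0.0064) and 0.54 ± 0.16 (adjusted p = 0.0148), and Nop56, of the complex that methylates ribosomal RNA, by 0.69 ± 0.19 (adjusted p = 0.0125). RNA polymerase I, which transcribes ribosomal RNA, had 7 of 14 subunits and factors (50%) higher and 0 lower. For the initiation factors eIF2, eIF3 and eIF5 it was 14 of 22 (63.6%). For 23 other TOP mRNAs it was 10 (43.5%), close to the share of all genes, with Eef1a1, the elongation factor that delivers tRNA, up by 0.43 ± 0.14 (adjusted p = 0.0252). By contrast, of 78 mitochondrial ribosomal proteins 2 rose (2.56%) and 8 fell (median -0.08). The share that fell is not far from the 7.18% of all genes called lower. Of 37 proteasome subunits 3 rose (8.11%) and 0 fell (median -0.02).

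In the mTORC1 list 7 of 18 genes (38.9%) rose and 0 fell, a share like that of all genes. They include Eif4ebp1, the mTORC1 target that restrains initiation, by 1.68 ± 0.30 (adjusted p = 0.0059), Ddit4, an inhibitor of the pathway, by 2.20 ± 0.56 (adjusted p = 0.0096), and Larp1, which binds TOP motifs, by 0.32 ± 0.09 (adjusted p = 0.0144), while Mtor itself was at -0.24 ± 0.15. Of 7 genes of p53 and its link to ribosomal proteins 5 rose (71.4%), where 39.3% of all genes were called higher. Mdm2 was higher by 1.37 ± 0.29 (adjusted p = 0.0066) and Cdkn1a, a p53 target and inhibitor of cyclin-dependent kinases, by 4.34 ± 0.80 (adjusted p = 0.0059).

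Markers of other tissues were read beside this comparison, where 39.3% of all genes were called higher and 7.18% lower. All 10 adrenal cortex genes and all 6 chromaffin cell genes rose in STZ+AOS against AOS, with sums of 4.85 to 6.57 and 0.75 to 3.86 FPKM in AOS. In STZ+AOS the chromaffin sum was 336, 18.3 and 211. Of 5 leukocyte genes tested 2 rose (40%), a share like that of all genes, and of 5 fat genes 1 (20%), a lower share. The sums over all 7 listed leukocyte genes were 136, 104 and 50.7 against 30.1 to 51.9 in AOS. Of 9 kidney genes, 3 rose and 3 fell. In STZ+AOS 1, 2 and 3 the adrenal sum was 2786, 144 and 3249, and the median of the 78 genes 699, 552 and 533 FPKM. In controls 1, 2 and 3 the sums were 8.13, 4.95 and 989, and the medians 396, 379 and 610 FPKM. In STZ 1, 2 and 3 the sums were 4.11, 49.5 and 83.5, and the medians 438, 496 and 615 FPKM. The medians of the AOS libraries were 408 to 424 FPKM. What part adrenal tissue had in the family's level was not tested. With Cyp11b1, an adrenal enzyme, as a covariate, 0 of all 12682 genes passed (0.0%), the 78 among them, and the median was -0.05 for the family and 0.07 over all genes. With the libraries above 100 FPKM of Cyp11b1 left out, which leaves STZ+AOS 2 alone in its group, 5 passed (Rpl13, Rps2, Rps27l, Rpsa and Rps16) against 5.05% of all genes, and the median was 0.38; the lone library is assumed to vary like the others.

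The scaling and single libraries also decided the count. Scaling each library by the median of ratios moved the median of all genes from 0.29 to -0.01, that of the family to 0.11, and left 0 of 78 past the threshold, against 13.3% of all genes higher. Over all genes, calls were 4985 higher and 910 lower as deposited, 1681 and 2499 under that scaling, and 1407 and 1951 under quantile normalization. Quantile normalization kept 44 of the 53 calls among 49, against 11.1% of all genes, and put Rpl29 lower. Without STZ+AOS 1 only Rps2 passed, against 23.1% of all genes, and the median of the family was 0.36. Without AOS 1, 2 or 3 the count was 26, 22 or 8, against 29.2%, 23.9% or 23.2% of all genes, with family medians of 0.48, 0.49 and 0.43.

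**Figure D5:**
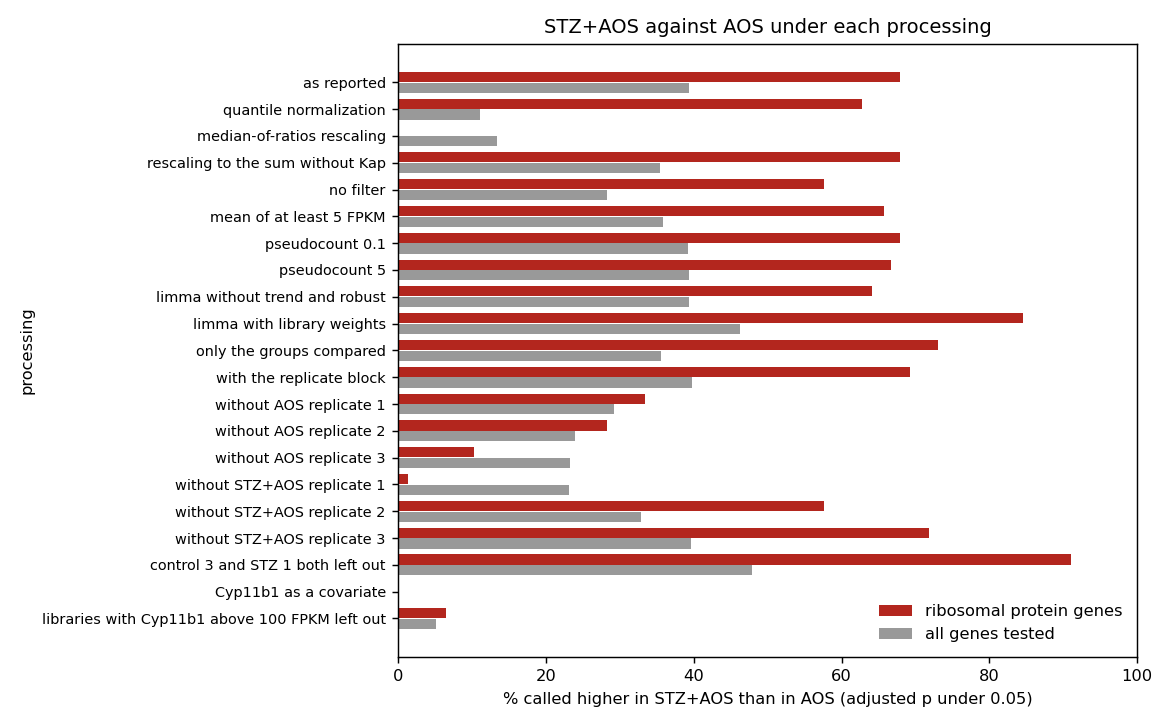
Share of genes called higher in STZ+AOS than in AOS under each processing, for the 78 ribosomal protein genes and for all genes tested, in percent. The family's share of 67.9% as reported drops to 0 under median-of-ratios scaling, where that of all genes is 13.3%, and nearly to 0 without STZ+AOS replicate 1, where it is 23.1%. With Cyp11b1 as a covariate both shares are 0.

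Whether STZ alone changed the family was asked against the controls, and 0 of the 78 genes passed, as did 0.0% of all genes. At an unadjusted p of 0.05, 161 of all genes and 1 member, Rps28, lay below. The median difference was 0.15, against 0.00 over all genes, with 75 of the 78 above 0, where 51.3% of all genes were. Medians of the family ran from 0.02 to 0.36 with each library left out. Groups overlapped for each of the 78, where 1.14% of all genes were higher and 2.08% lower without overlap. Rps28 was at 577 FPKM in STZ and 422 in the controls on average (0.48 ± 0.22, adjusted p = 0.9996). The second smallest p was that of Rpl9, which was at 347, 365 and 528 FPKM in control, 385, 359 and 367 in AOS and 416, 500.1 and 557 in STZ, and at 571, 467 and 463 in STZ+AOS, 433, 430.3 and 407 in STZ+AOS-FMT and 409.5, 447 and 467 in STZ+control-FMT. Control 3 lay among the STZ libraries, and the difference was 0.26 ± 0.14 (adjusted p = 0.9996).

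Control 3 had the highest family share of the controls and STZ 1 the lowest of STZ, so leaving both out, a choice made with earlier results of these data known, raises the difference by construction. The values without them, a description and no support for a rise, were 38 of 78 genes past the threshold, against 6.95% of all genes, and a median of 0.46 against 0.16. With limma's weights for each library 28 passed, against 5.70%. The weights are estimated from these same libraries and lower those that differ from their group, so this count is no separate support either. Spermatid markers were listed at a sum of 20.3 to 80.2 FPKM in the 6 control and STZ libraries and at most 0.59 in the other 12. The control and STZ libraries thus share a feature that the others lack. It divides the groups of AOS against control, STZ+AOS against STZ, and each transfer group against STZ. In those comparisons it cannot be told apart from the treatment. Both groups had it in STZ against control, and both lacked it in STZ+AOS against AOS.

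AOS alone gave 0 calls among the 78, against 0.071% of all genes called lower, and 0 at an unadjusted p of 0.05. The median difference from the controls was -0.15, and -0.09 over all genes. Without control 3 the family median was 0.04. Of the 78 genes 77 lay below 0, where 26.0% of all genes lay above 0. The smallest p was that of Rplp1, whose values stand above, with -0.32 ± 0.18 (adjusted p = 0.817). Rpl7, a large subunit protein, followed and was at 487, 452 and 627 FPKM in control, 468, 442 and 424 in AOS and 493, 505 and 617 in STZ, and at 746, 574 and 566 in STZ+AOS, 479, 466 and 501 in STZ+AOS-FMT and 470.3, 475 and 534 in STZ+control-FMT. Control 2 lay within the range of AOS, and the difference was -0.22 ± 0.13 (adjusted p = 0.817). Groups did not overlap for Rpl10a alone, which was lower in AOS, against 10.2% of all genes lower and 2.89% higher without overlap.

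Adding AOS to STZ gave 0 calls, against 3.44% of all genes called higher and 4.53% in either direction, and 0 at an unadjusted p of 0.05. The median was 0.16, and 0.19 over all genes, with 71 of 78 above 0, where 73.6% of all genes were. It ran from 0.04 without STZ+AOS 1 to 0.29 without STZ 3, and median-of-ratios scaling turned it to -0.08 and Cyp11b1 as a covariate to -0.23. Rpl27 had the smallest p and was at 238, 244 and 349 FPKM in control, 284, 297 and 253 in AOS and 276, 309.8 and 349.6 in STZ, and at 421, 352 and 344 in STZ+AOS, 307, 283 and 279.97 in STZ+AOS-FMT and 324, 313 and 322 in STZ+control-FMT. The difference was 0.26 ± 0.14 (adjusted p = 0.193) and STZ 3 overlapped with STZ+AOS. Rpl18 was at 410.2, 389 and 558 FPKM in control, 417, 423 and 394 in AOS and 420.1, 466 and 555 in STZ, and at 670.2, 549 and 499 in STZ+AOS, 471, 439 and 431 in STZ+AOS-FMT and 434, 455 and 466 in STZ+control-FMT. It gave 0.25 ± 0.14 (adjusted p = 0.206). Groups did not overlap for Rpl11 alone, higher in STZ+AOS, against 20.2% of all genes higher and 4.01% lower.

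The interaction compares the difference that AOS made with STZ with that made without it. All 78 genes were above 0, where 76.4% of all genes were, with a median of 0.32 against 0.29 over all genes. Of the 78, 0 passed, as did 0.0% of all genes, with 1 of the 78 at an unadjusted p of 0.05. That gene was Rpl7 (0.44 ± 0.19, adjusted p = 0.128). Rps3, of the mRNA entry channel, came next and was at 134, 134 and 194 FPKM in control, 137, 136 and 131 in AOS and 143, 164 and 181 in STZ, and at 227, 175 and 172 in STZ+AOS, 149, 139.6 and 142 in STZ+AOS-FMT and 161, 145 and 152 in STZ+control-FMT. Its interaction was 0.40 ± 0.20 (adjusted p = 0.165). The median was 0.10 without control 3, was -0.00 with control 3 and STZ 1 left out and -0.03 under median-of-ratios scaling.

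With a transfer, the family lay slightly below STZ, and no gene passed. For STZ+AOS-FMT the median was -0.12, and 0.01 over all genes, with 10 of 78 above 0, where 53.2% of all genes were. For STZ+control-FMT it was -0.06, and 0.02 over all genes, with 22 of 78 above 0, where 56.3% of all genes were. Both counts of calls were 0, and 0 at an unadjusted p of 0.05, against 0.11% and 0.103% of all genes called lower. Both comparisons use the same STZ libraries, and without STZ 3 the medians were 0.02 and 0.07. Groups did not overlap for 5 genes lower in STZ+AOS-FMT (Rps27a, Rpl34, Rpl37, Rpl10a and Rpl35a, against 2.90% of all genes lower and 5.5% higher), and for Rps27a and Rpl10a lower (against 2.22%) and Rpsa higher (against 4.19%) in STZ+control-FMT.

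The smallest p-values belonged to genes whose values stand above. Rps27a differed by -0.22 ± 0.12 in STZ+AOS-FMT and Rpl34 by -0.23 ± 0.13 (both adjusted p = 0.9995), and in STZ+control-FMT Rpsa by 0.25 ± 0.15 and Rps27a by -0.19 ± 0.12 (both adjusted p = 1.00). Between the donors, STZ+AOS-FMT minus STZ+control-FMT, the median was -0.05, and -0.01 over all genes, with 0 calls against 0.0% of all genes and 0 at an unadjusted p of 0.05. Rpl37 was at 165, 133 and 202 FPKM in control, 143, 147 and 138 in AOS and 157, 168 and 208 in STZ, and at 249.6, 185 and 185 in STZ+AOS, 154, 149.7 and 141 in STZ+AOS-FMT and 183, 161 and 179.8 in STZ+control-FMT. It was lower with AOS donors in every library (-0.23 ± 0.15, adjusted p = 1.00). Rps29, a zinc finger protein, was at 382, 310.3 and 417 FPKM in control, 377, 376 and 337 in AOS and 415, 401 and 469.5 in STZ, and at 527, 439 and 396 in STZ+AOS, 449, 348 and 343 in STZ+AOS-FMT and 512, 368 and 410.2 in STZ+control-FMT. The groups overlapped (-0.17 ± 0.15, adjusted p = 1.00). Groups did not overlap for 5 genes lower with AOS donors, among them Rpl37, Rpl27, Rpsa and Rpl13a, against 4.85% of all genes lower and 6.39% higher.

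Beneath the common movement, the proportions of the genes to each other varied little. Each gene was set against the median of the family in the same library, on the log2 scale. The range of this relative level over 18 libraries had a median of 0.32, and was under 0.5 for 66 of the 78 genes. It was over 1 for Rpl3l (1.59), Rps6 (1.49), Rpl29 (1.33) and Rpl36 (1.09). The first 3 of these are low genes, but Rpl34, lower than Rps6, kept within -6.38 to -5.77. The reason for the wide ranges was not tested. Rpl36 (chr17:56613416-56614243), of the large subunit, was at 275, 278 and 569.9 FPKM in control, 182, 299.7 and 291 in AOS and 376, 295 and 576 in STZ, and at 492, 361 and 309 in STZ+AOS, 401, 356 and 353 in STZ+AOS-FMT and 388, 374 and 264 in STZ+control-FMT. AOS 1 lay well below AOS 2 and 3, and STZ+control-FMT 3 below the other transfers.

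A pair of genes, picked after their values were seen, had a higher relative level in all 6 transfer libraries than in any of the other 12. Rpsa lay 0.26 to 0.43 above the family median with a transfer, and between -0.09 and 0.24 without. Rplp0 lay 0.42 to 0.48 above it with a transfer and 0.30 to 0.41 without. For Rplp0 the lowest transfer library was at 0.421 and the highest other library at 0.408. These were 2 of 78 genes, and no test was made because they were chosen for this pattern. How many of all genes separate in this way was not counted, so the pattern cannot be read as particular to them.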

How the data were processed

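Per the labels' protocols, kidney RNA came from a Trizol extraction and a column kit and went into standard Illumina libraries. Bowtie 0.12.2 and the mouse genome mm10 are named in the submitters' processing notes; what counted the reads, over which gene models and with which filter, is not given in the sources used here. Values deposited by the authors are read here as FPKM, a unit inferred because no header names it. Over the libraries, the sum of value times GENCODE M21 gene length varied by 0.931% (coefficient of variation) and the plain sum by 5.47%. From the smallest values of 39 to 77 genes a library, 1 read was worth 1 to 1.18 times as much from library to library.

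Genes reaching 1 FPKM in 3 or more libraries were kept, and limma fitted log2(FPKM + 1) of all 18 libraries together, with a mean for each group (limma 3.58.1, R 4.3.3, trend and robust options), and p-values were adjusted by Benjamini-Hochberg over 12682 genes. The log2 scale understates changes of genes near 0. The fit was tested on simulated data, with noise drawn separately for each gene and changes larger than those of the family. That does not bear on shifts of a library that many genes share, or on differences of the size reported here. The members, the gene lists and some alternatives were chosen with earlier results of these data known. Values in every library are given for the 6 highest and 4 lowest members, the 4 that varied most relative to the family, up to 5 called members in each direction of a comparison or, with none, the 2 with the smallest p, and 9 members of known role. Coordinates of genes are those of GENCODE M21 on GRCm38, the build of mm10. Alternatives were other scalings, filters, pseudocounts and variance models, library weights (gene-by-gene method), fits without the other groups, a block for the replicate number, libraries left out, and Cyp11b1 as a covariate. Results of 1 member by name are not reported here; it is counted in the totals.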

Additional observations from a re-analysis of the deposited data

How the results depend on the processing

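The result that changed most was STZ+AOS against AOS, where 53 of 78 ribosomal protein genes passed. Under median-of-ratios scaling the count was 0 and the median difference 0.11, and with Cyp11b1 as a covariate 0 and -0.0485 (0 of all 12682 genes passed then); without the libraries above 100 FPKM of Cyp11b1 5 passed, and with 1 library of either group left out 1 to 56. The covariate also reversed Rpl12 (-0.0933), Rps28 (-0.0143) and Rpl36a (-0.142) there, Rpl27 (-0.0815) and Rpl18 (-0.054) in STZ+AOS against STZ, and Rps3 (-0.114) in the interaction. The causes were not tested. The count stayed between 45 and 71 under quantile normalization, scaling without Kap, both filters, both pseudocounts, limma without trend and robust, library weights, only the groups compared, and control 3 and STZ 1 left out.

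In STZ against control, library weights, estimated from these same libraries, gave 28 calls. Leaving out control 3 and STZ 1, the highest control and the lowest STZ library for the family, gave 38 and a median of 0.463. That choice itself favours a rise. In STZ+AOS against STZ the median was -0.0757 under median-of-ratios scaling and -0.231 with the covariate, and with a library left out it ran from 0.0355 to 0.286 and 0 to 1 genes passed. The median of the interaction was -0.0295 under median-of-ratios scaling, 0.10 to 0.45 with a library left out, -0.0033 without control 3 and STZ 1, -0.25 with the covariate and 0.0246 without the libraries above 100 FPKM of Cyp11b1.

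With the replicate number as a block, 54 genes passed in STZ+AOS against AOS, and the count of calls stayed at 0 in each other comparison. The labels do not say that a number pairs libraries. Of 45 pairs of libraries with the same number, 15 had a correlation of deviations over 0.1 (-0.26 to 0.67, median -0.004). Of 90 pairs with different numbers, 16 did (-0.72 to 0.59, median 0.001). Depth is unknown, so no limit from counting can be given, and the lowest genes (Rpl3l, Rpl29 and Rpl34) are the least certain.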
